A study of Arabidopsis thaliana with 36 samples.

Results

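Roots of unstressed Arabidopsis thaliana plants sampled at 1 and 3 h were compared with roots of the same series sampled at 0.25 and 0.5 h. The 1 and 3 h group held 4 arrays and the 0.25 and 0.5 h group held 4, so 8 of the 36 arrays of the series carried the comparison, chosen by tissue and time in the sample titles. All plants were accession Col-0 and served as the controls of a stress experiment. Each time and tissue had 2 arrays, and the remaining root arrays, including those at 0 h, only shared the estimate of the spread. The plants grew on Murashige and Skoog medium at 24 °C and 50% humidity in 16 h days, and the course began on day 16, 3 h after lights on. They received no stress but the same movements as stressed plants: their boxes left the climate chamber, were opened with the raft lifted, and went back. The 1 and 3 h roots were therefore taken 4 and 6 h after lights on, and the 0.25 and 0.5 h roots 3.25 and 3.5 h after lights on. Time since this handling and time of day moved together in every comparison below and cannot be told apart. Nothing in the labels says that the 2 arrays of a group came from separate plants. The p-values therefore measure the spread between these samples, which may be technical, and the small number of arrays limits their precision.

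As background, plant cells that run short of oxygen turn from respiration to fermentation, in which pyruvate decarboxylase and alcohol dehydrogenase regenerate the cofactor that glycolysis needs. A set of transcription factors of the ethylene response family is degraded while oxygen is present and switches on a small, shared group of genes when oxygen falls, and roots are the organ in which this response is best known. Heat shock proteins are chaperones that keep other proteins folded, and their transcripts also accumulate under other stresses. The circadian clock sets daily rhythms in a large share of plant transcripts, with GIGANTEA (GI) among its components. Class III peroxidases are secreted enzymes of the cell wall that form a large family in roots.

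Signals are the deposited array intensities, scaled so that the trimmed mean of each array was near 100. Differences are log2 differences of the signal plus 10, given ± the standard error (SE), so changes of low signals are understated. A difference passed the test at a Benjamini-Hochberg adjusted p under 0.05 in limma, over all 13346 root probe sets kept by a filter on low signals. The tissue label was checked with marker genes. The 4 kept root markers had a summed signal of 4179 to 5249.5 on the 8 root arrays and 466 to 884 on the shoot arrays of the same times. For the 5 photosynthesis markers the sums were 302 to 499 in roots and 21998 to 27338 in shoots. Root arrays thus carried root transcripts and a far lower signal of green tissue genes than shoot arrays. Of 8 photosynthesis markers with a probe set, these 5 were kept because they reached a signal of 40 on 2 or more root arrays. That they were measurable in roots therefore followed from the filter. Within roots the photosynthesis sum was 318 to 408 at 1 and 3 h and 302 to 499 at 0.25 and 0.5 h, and the root marker sum was 4758 to 5249.5 at 1 and 3 h and 4179 to 4491 at 0.25 and 0.5 h. PYK10 made up most of the root marker sum, so the sum mainly follows that gene. The root markers EXPA7 and EXPA18 had log2 differences of -0.0042 and 0.052. None of the root or photosynthesis markers was near 0 on all 8 root arrays. Each array measured RNA of whole roots, so fewer cells of a type and less RNA per cell cannot be told apart.

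Most of the largest rises among probe sets with 1 gene and without array overlap belonged to genes known from the response to low oxygen. Of 21 genes of the hypoxia list with a probe set matched to 1 gene, 12 rose at 1 and 3 h and 0 fell, with a median log2 difference of 1.75 against -0.017 over all probe sets. Over all 13346 probe sets, 0.877% rose (117), 0.495% fell (66) and 1.37% passed in either direction (183). The list held 47 loci, of which 21 had a probe set matched to that gene alone, and the filter kept every one of these. The other loci of the list were not examined, whether or not the array carries them. All 21 differences were positive, from 0.17 to 2.93, also under both other scalings tried, and for 13 genes every 1 and 3 h array lay above every 0.25 and 0.5 h array. Such a separation was seen in 4.62% of all probe sets, upward in 2.03%. Summed over the list, the signal was 16197 and 8721 at 1 h and 12104 and 13752 at 3 h, against 3331 and 5404 at 0.25 h and 6889.8 and 5681 at 0.5 h. Among the 12 largest rises of probe sets with 1 gene and without overlap, 10 were members of this list. Of the 117 probe sets that rose, 59 had 1 gene, and the others were not ranked.

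AT3G10040, listed under the synonym HYPOXIA RESPONSE ATTENUATOR1 (HRA1), a transcription factor known to restrain the low-oxygen response, rose most among the list members. Its signal was 1190.3 and 554 at 1 h and 327 and 281 at 3 h, against 51.7 and 51.4 at 0.25 h and 67.6 and 56.8 at 0.5 h. The log2 difference was 2.93 ± 0.37, adjusted p = 0.0020, a 7.62-fold rise on the scale with the pseudocount. All 4 late arrays lay far above the early ones, and the 1 h pair above the 3 h pair. PDC2, pyruvate decarboxylase, the enzyme that opens the ethanol pathway, had a signal of 554 and 308 at 1 h and 578 and 693 at 3 h, against 105 and 156 at 0.25 h and 204 and 164 at 0.5 h. It rose by 1.68 ± 0.23, adjusted p = 0.0030, and here the 3 h arrays were the highest. CML38, a calmodulin-like calcium sensor, had a signal of 753 and 235 at 1 h and 429.9 and 432 at 3 h, against 123 and 91.3 at 0.25 h and 76.8 and 94.98 at 0.5 h. It rose by 2.05 ± 0.46, adjusted p = 0.0489, without overlap, but lost the call under 13 of 20 alternatives.

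The other members that rose carry no name in the annotation used here. AT5G66985 had a signal of 1870.2 and 1197 at 1 h and 959 and 1073 at 3 h, against 342 and 342 at 0.25 h and 224 and 323 at 0.5 h, and rose by 1.99 ± 0.22, adjusted p = 0.0013. AT1G33055 had a signal of 1762 and 785 at 1 h and 782 and 890.4 at 3 h, against 186 and 268 at 0.25 h and 256 and 248 at 0.5 h, and rose by 2.02 ± 0.33, adjusted p = 0.0089. For AT4G10270 the signal was 1399 and 648 at 1 h and 475 and 516 at 3 h, against 159 and 115 at 0.25 h and 137 and 151 at 0.5 h (log2 difference 2.22 ± 0.35, adjusted p = 0.0078). In each of these genes the highest array was replicate 1 at 1 h. AT4G24110 had a signal of 481 and 219.5 at 1 h and 253 and 274 at 3 h, against 54.2 and 38.6 at 0.25 h and 59.3 and 44.98 at 0.5 h (log2 difference 2.37 ± 0.40, adjusted p = 0.010). AT3G27220 had 436 and 252 at 1 h and 185 and 234 at 3 h, against 55.5 and 58.7 at 0.25 h and 85.05 and 80.9 at 0.5 h (log2 difference 1.79 ± 0.28, adjusted p = 0.0072), and AT5G44730 516 and 273 at 1 h and 287 and 396 at 3 h, against 81.8 and 96.6 at 0.25 h and 115 and 103 at 0.5 h (log2 difference 1.75 ± 0.29, adjusted p = 0.0090). These 3 genes showed no overlap between the groups, and their 1 h and 3 h arrays overlapped or lay close.

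AT4G33560 had a signal of 344 and 171 at 1 h and 295 and 299 at 3 h, against 49.8 and 58.8 at 0.25 h and 92.4 and 61.00 at 0.5 h, and rose by 1.92 ± 0.36, adjusted p = 0.019. AT1G74940 had 351 and 206 at 1 h and 159 and 213 at 3 h, against 85.8 and 106 at 0.25 h and 95.5 and 103 at 0.5 h, and rose by 1.12 ± 0.21, adjusted p = 0.020. AT2G17850 had 267 and 122 at 1 h and 515 and 590.1 at 3 h, against 20.4 and 42.9 at 0.25 h and 148 and 50.9 at 0.5 h, and its log2 difference was 2.39 ± 0.44, adjusted p = 0.018. It was the only called member whose groups overlapped, since replicate 1 at 0.5 h lay above replicate 2 at 1 h. The 9 members that did not pass had log2 differences of 0.17 to 2.10. The largest belonged to AT5G10040, with a signal of 455 and 166 at 1 h and 546 and 593 at 3 h, against 22.8 and 80.3 at 0.25 h and 283 and 83.1 at 0.5 h and adjusted p = 0.13. AT4G39675 (1.28, adjusted p = 0.056) and AT4G17670 (0.83, adjusted p = 0.0503) missed the threshold narrowly, with no overlap between the groups.

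The 1 h replicates differed in this group of genes. Replicate 1 exceeded replicate 2 in all 21 members, by a median of 2.08-fold (1.56 to 3.21-fold) among the 12 that rose. Without replicate 1 at 1 h, 8 members passed, and without replicate 2 at 1 h 14 did. Without replicate 2 at 3 h the count was 3, and without replicate 1 at 3 h 9. It was 8 without replicate 1 at 0.25 h and 8 without replicate 2 at 0.5 h. With the 25S ribosomal RNA (rRNA) array control as a covariate 3 members passed, 21 of 21 differences were positive and their median was 1.64. AT3G10040, AT5G66985 and PDC2 kept their calls under every alternative.

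Beyond this list, AT3G23170 and AT5G26200 were among the 12 largest rises, and neither has a name or role in the annotation used. AT3G23170 had a signal of 342 and 135 at 1 h and 96.9 and 90.8 at 3 h, against 30.5 and 23.7 at 0.25 h and 30.5 and 32.1 at 0.5 h (log2 difference 1.97 ± 0.26, adjusted p = 0.0021). AT5G26200 had 158 and 96.7 at 1 h and 57.7 and 66.2 at 3 h, against 26.4 and 17.4 at 0.25 h and 25.9 and 17.1 at 0.5 h (log2 difference 1.64 ± 0.23, adjusted p = 0.0029). Both stood highest at 1 h, and both kept their calls under every alternative. In all, 36 of the 117 probe sets that rose did so by at least 2-fold, and 93 rose without overlap between the groups. The median log2 difference of the 117 was 0.68.

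**Figure D1:**
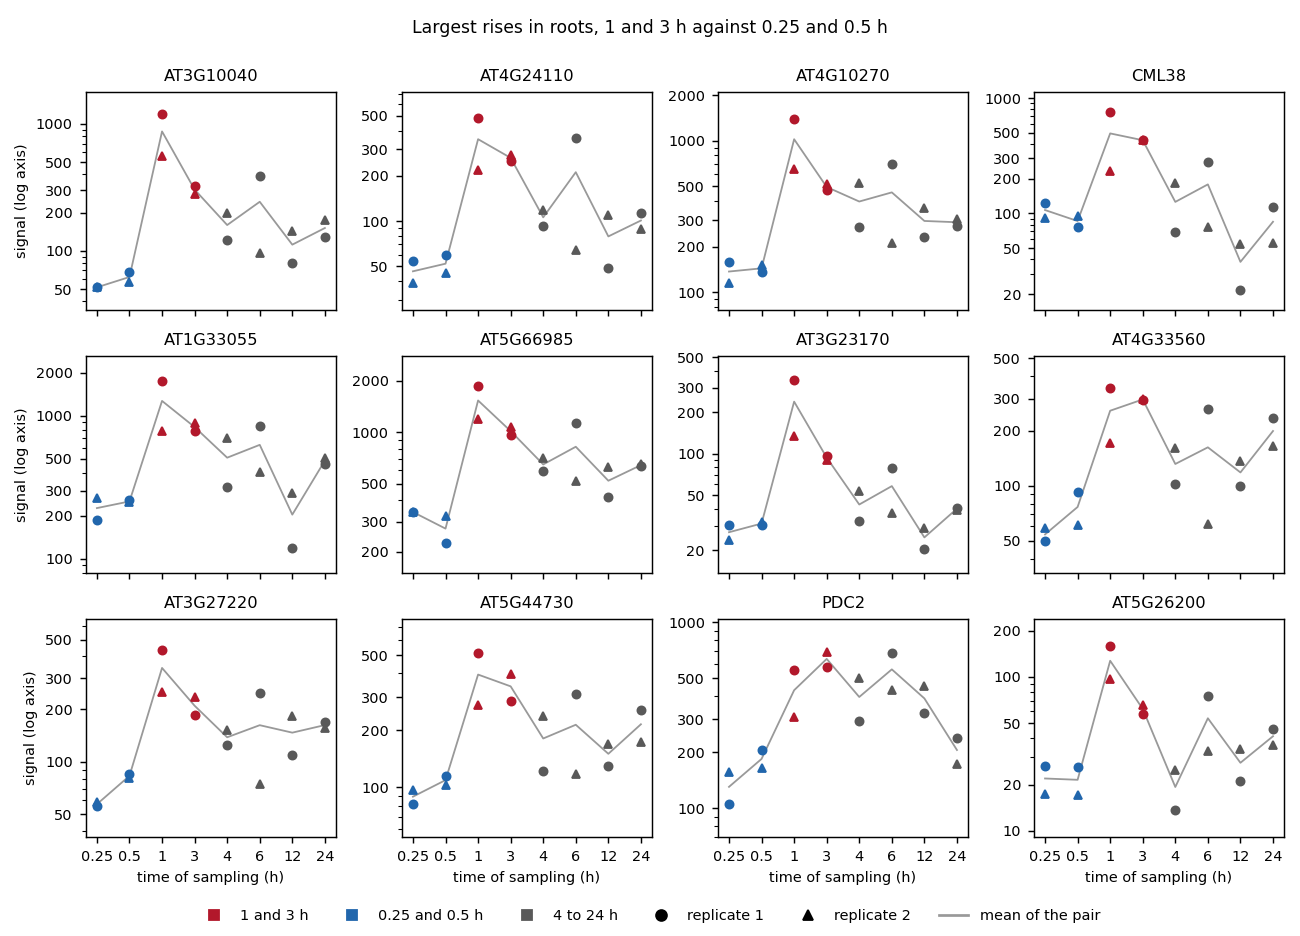
Signal (log axis) in roots by sampling time (h) of the 12 largest rises among probe sets with 1 gene and without overlap. A circle or triangle marks each array and a line runs through the mean of each pair. AT3G10040 lies at 281 to 1190.3 at 1 and 3 h (red) and at 51.4 to 67.6 at 0.25 and 0.5 h (blue). In every panel the red points lie above the blue ones because the genes were chosen that way.

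Later root arrays, which took no part in the comparison, are given for context. At 4, 6, 12 and 24 h AT3G10040 had mean signals of 159.6, 243, 112 and 151. PDC2 had 396, 558, 389 and 205 (n = 2 at each time). The 24 h mean of PDC2 was level with replicate 1 at 0.5 h, and no test was made of these times. The replicates at 6 h lay far apart, at 390.2 and 96.7 for AT3G10040.

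The falls were smaller than the rises. Of the 66 probe sets that fell, 9 did so by at least 2-fold, and the median log2 difference was -0.48. Without overlap 53 fell, where 2.59% of all probe sets lay without overlap in this direction. Of the 66, 23 had 1 gene. The 12 largest falls described here were ranked among those of the 23 without overlap, and the other probe sets were not ranked. EXLA3, an expansin-like cell wall protein, had a signal of 37.8 and 14.02 at 1 h and 27.1 and 22.1 at 3 h, against 106 and 67.1 at 0.25 h and 75.2 and 58.1 at 0.5 h. It fell by 1.31 ± 0.29, adjusted p = 0.0485, and lost the call under 13 of 19 alternatives. It was the only one of 12 kept genes of the expansin and wall loosening list to pass (-1.31 to 0.34 over the list). OCT1, an organic cation and carnitine transporter, had a signal of 5.46 and 7.76 at 1 h and 19.2 and 12.4 at 3 h, against 62.1 and 31.5 at 0.25 h and 33.9 and 30.9 at 0.5 h. Its log2 difference was -1.23 ± 0.18, adjusted p = 0.0039. All 1 and 3 h signals were under 20, so the size depended on the pseudocount, from -1.92 without it to -0.54 with a pseudocount of 50, and the call held throughout.

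GTR1, a glucosinolate transporter of the nitrate and peptide transporter family, had a signal of 121 and 121 at 1 h and 75.4 and 68.3 at 3 h, against 186 and 126 at 0.25 h and 127 and 161 at 0.5 h (log2 difference -0.61 ± 0.12, adjusted p = 0.024). The 3 h arrays were the lowest. IQD26, a protein of the calmodulin-binding IQ-domain family, had 32.4 and 28.7 at 1 h and 47.7 and 46.8 at 3 h, against 60.1 and 49.5 at 0.25 h and 60.9 and 51.8 at 0.5 h (log2 difference -0.44 ± 0.079, adjusted p = 0.014). Here the 1 h arrays were the lowest. The other 8 of the 12 largest falls of probe sets with 1 gene and without overlap have no name in the annotation. AT1G14480 had a signal of 44.9 and 31.9 at 1 h and 66.96 and 69.2 at 3 h, against 139 and 87.6 at 0.25 h and 100.1 and 82.04 at 0.5 h (log2 difference -0.85 ± 0.18, adjusted p = 0.036). AT5G12340 had 219.7 and 151 at 1 h and 165 and 151 at 3 h, against 411 and 245 at 0.25 h and 234 and 257 at 0.5 h (log2 difference -0.69 ± 0.14, adjusted p = 0.033). Replicate 1 at 0.25 h was the highest array of both genes. AT3G50280 fell by 0.67 ± 0.11, adjusted p = 0.0073, with 23.9 to 43.7 at 1 and 3 h and 55.2 to 75.1 at 0.25 and 0.5 h. It lost its call under 1 of 19 alternatives, GTR1 under 8 of 20, IQD26 under 8 of 19, and AT1G14480 and AT5G12340 under 10 of 20 each.

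AT5G37540 (-0.62 ± 0.12), AT1G16260 (-0.55 ± 0.10), AT4G28310 (-0.47 ± 0.10), AT1G04000 (-0.44 ± 0.088) and AT5G13900 (-0.43 ± 0.092) completed the 12, with adjusted p of 0.015 to 0.038. Their signals separated by a small margin. AT5G37540, for example, had 82.4 to 135 at 1 and 3 h and 139 to 176 at 0.25 and 0.5 h, and AT5G13900 87.8 to 124 at 1 and 3 h and 136 to 147 at 0.25 and 0.5 h. AT1G16260 was lowest at 1 h, with 20.8 and 32.5 at 1 h and 50.7 and 55.3 at 3 h, against 60.7 and 59.9 at 0.25 h and 61.7 and 56.7 at 0.5 h. Each of these 5 genes lost its call under 6 to 12 of the 19 or 20 alternatives tried.

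**Figure D2:**
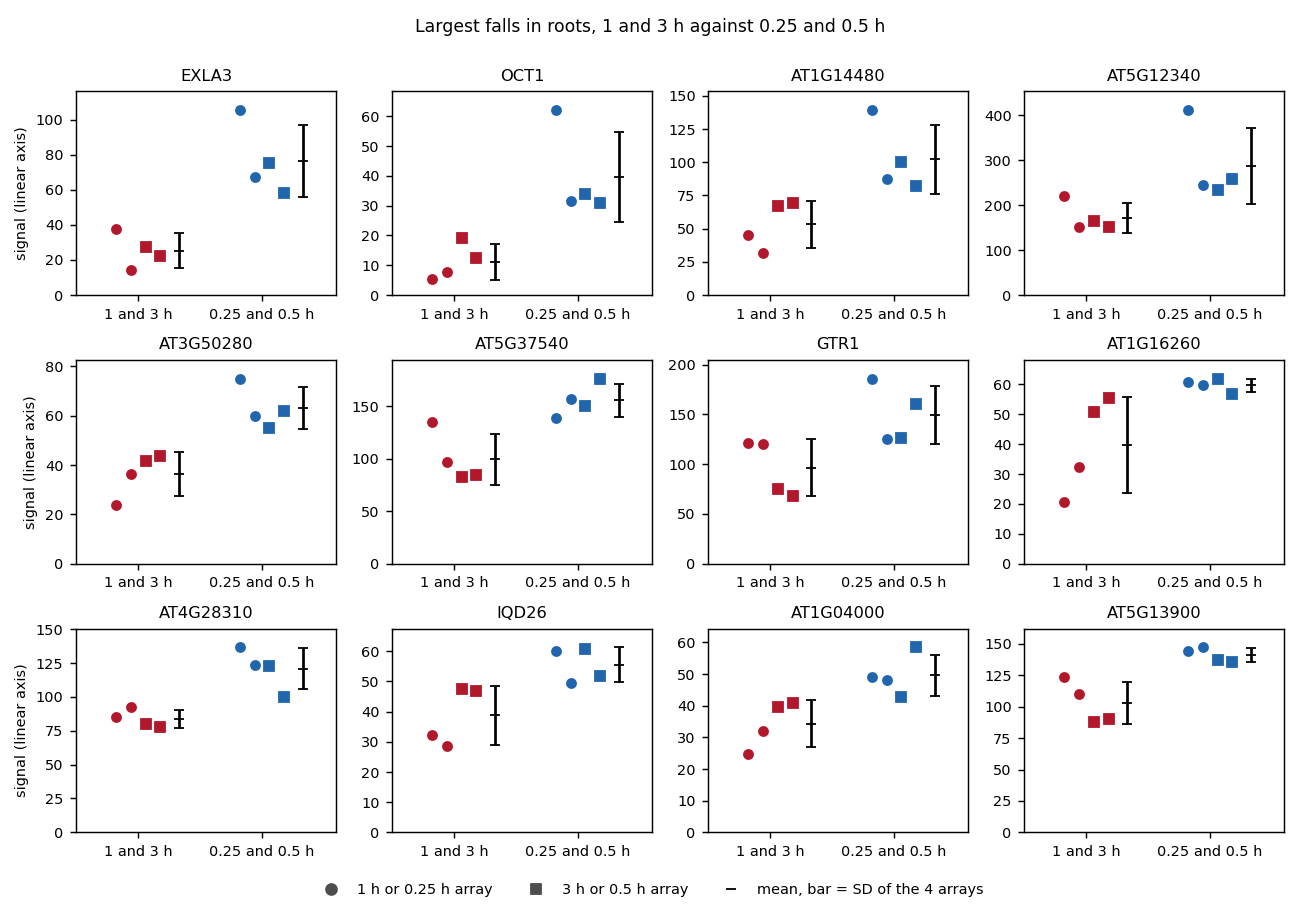
Signal (linear axis from 0) of the 12 largest falls among probe sets with 1 gene and without overlap. The 4 arrays of 1 and 3 h are on the left and the 4 of 0.25 and 0.5 h on the right. Circles mark the earlier and squares the later time of each group, with the mean and the SD beside them. OCT1 lies at 5.46 to 19.2 at 1 and 3 h (red) and at 30.9 to 62.1 at 0.25 and 0.5 h (blue). No red point reaches the lowest blue one in any panel because the genes were chosen that way.

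Of 7 kept genes of the clock list, 2 rose and 0 fell (median 0.26), where 0.877% of all probe sets rose and 0.495% fell. GI had a signal of 215 and 218 at 1 h and 317 and 308 at 3 h, against 194 and 207 at 0.25 h and 189 and 166 at 0.5 h (log2 difference 0.45 ± 0.087, adjusted p = 0.024). AT4G33980, a member without a name in the annotation, had 26.05 and 15.5 at 1 h and 55.3 and 51.4 at 3 h, against 12.3 and 9.49 at 0.25 h and 9.75 and 10.03 at 0.5 h (log2 difference 1.11 ± 0.14, adjusted p = 0.0020). Both stood highest at 3 h. AT4G16146 passed at 3 h against 0.25 and 0.5 h (0.62 ± 0.11, adjusted p = 0.012) but not over both times (0.30 ± 0.087, adjusted p = 0.14). AT4G33980 kept its call under every alternative, and GI lost it under 7 of 20. AT1G56300, which belongs to no list and was chosen after its values were seen, ran the same way, with 42.2 and 38.4 at 1 h and 88.5 and 99.8 at 3 h, against 20.8 and 30.3 at 0.25 h and 25.4 and 31.3 at 0.5 h (log2 difference 0.98 ± 0.11, adjusted p = 0.0013).

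Touch and rapid stress genes, which respond within minutes when a plant is moved, gave 1 rise among 9 kept members (median -0.34). Among all probe sets 0.877% rose. The member that rose was CML38, which is also in the hypoxia and calmodulin-like lists. The zinc finger repressor gene STZ had a signal of 278 and 139 at 1 h and 215 and 215 at 3 h, against 548 and 407 at 0.25 h and 169 and 323 at 0.5 h (log2 difference -0.67 ± 0.39, adjusted p = 0.58). The groups overlapped, and replicate 1 at 0.25 h was the highest array. WRKY22, a transcription factor of the defence response, had 41.7 to 60.95 at 1 and 3 h and 26.5 to 35.6 at 0.25 and 0.5 h (log2 difference 0.44 ± 0.13, adjusted p = 0.16), and WRKY53, of the same family, 29.8 to 37.5 at 1 and 3 h and 37.2 to 52.4 at 0.25 and 0.5 h (-0.34 ± 0.19, adjusted p = 0.56). Of 7 sugar starvation genes 0 rose and 0 fell (median 0.11). Their member with the smallest p, AT3G15450, had 1434 to 2060.5 at 1 and 3 h and 1066 to 1717 at 0.25 and 0.5 h (0.33 ± 0.17, adjusted p = 0.51).

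In the other lists no member passed over both late times. Transport and nutrition were represented by the lists for nitrate (7 kept, median 0.10, -0.21 to 0.19), sulfate (4 kept, median -0.011, -0.22 to 0.32), iron and coumarins (4 kept, median 0.058, -0.39 to 0.27), sugar transport (4 kept, median 0.18, -0.31 to 0.23) and starch and trehalose (2 kept, median 0.11, 0.066 to 0.15), each with its number of genes, its median log2 difference and its range. PYE, a regulator of iron homeostasis, had 59.2 to 71.7 at 1 and 3 h and 47.00 to 56.4 at 0.25 and 0.5 h (0.27 ± 0.092, adjusted p = 0.24), without overlap, and AT3G13610 of the same list 1018 to 1191 at 1 and 3 h and 798 to 1155 at 0.25 and 0.5 h (0.19 ± 0.12, adjusted p = 0.60). AT1G04770 of the sulfate list had 297 to 373 at 1 and 3 h and 231 to 283 at 0.25 and 0.5 h (0.32 ± 0.11, adjusted p = 0.24), also without overlap. Among hormone lists, the auxin genes had 5 kept members (median -0.34, -0.60 to 0.072). LBD29, a regulator of lateral root formation, stood lowest among them, with 22.4 to 38.96 at 1 and 3 h and 43.6 to 67.8 at 0.25 and 0.5 h (-0.60 ± 0.18, adjusted p = 0.15).

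Secondary metabolism was represented by flavonoid (4 kept, median -0.16, -0.32 to 0.11) and glucosinolate (3 kept, median -0.08, -0.10 to -0.057) genes, and growth by cell division and histone (6 kept, median 0.016, -0.15 to 0.11) genes. BCAT4, which starts methionine chain elongation in glucosinolate synthesis, had 744 to 1071 at 1 and 3 h and 730.1 to 1112 at 0.25 and 0.5 h (-0.08 ± 0.14, adjusted p = 0.90). HTB2, a histone H2B, had 210.0 to 256 at 1 and 3 h and 167 to 267 at 0.25 and 0.5 h (0.11 ± 0.10, adjusted p = 0.77). These values overlapped fully between the groups. The gene families written by name were UGT glycosyltransferases (25 kept, median 0.024, -0.32 to 0.31), glutathione transferases (10 kept, median 0.0034, -0.22 to 0.32), WRKY factors (5 kept, median -0.011, -0.34 to 0.44) and genes with a CYP name (9 kept, median -0.055, -0.29 to 0.069). The CYP names were meant to collect cytochrome P450 genes. The highest value among them, 0.069, belonged to CYP71 (AT3G44600), a cyclophilin and not a cytochrome P450. The defence list, written by locus, had 4 kept genes (median -0.0063, -0.086 to 0.32). The root marker PYK10, a beta-glucosidase of endoplasmic reticulum bodies, had 3990.3 and 4001 at 1 h and 3505 and 3608 at 3 h, against 3246 and 3437 at 0.25 h and 3291 and 3134 at 0.5 h (0.20 ± 0.064, adjusted p = 0.19), and its arrays did not overlap. The 40 class III peroxidases, a list added after the data were seen, had a median of -0.02 (-0.42 to 0.46) and no call. AT1G44970 had the smallest p among them (-0.42 ± 0.10, adjusted p = 0.084).

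The 1 h and 3 h roots were next set separately against the 0.25 and 0.5 h roots, so both comparisons share those 4 arrays. At 1 h, 179 probe sets (1.34%) rose and 254 (1.9%) fell, 3.24% in all, and at 3 h 187 (1.4%) rose and 112 (0.839%) fell, 2.24% in all. Hypoxia list members passed at both times, 10 of 21 at 1 h (median 1.59) and 10 at 3 h (median 1.68), and none fell at either time. For AT3G10040 the log2 difference was 3.63 ± 0.45 at 1 h and 2.23 ± 0.45 at 3 h, and for PDC2 1.38 ± 0.28 at 1 h and 1.98 ± 0.28 at 3 h. AT2G15880 passed at 3 h (1.04 ± 0.22, adjusted p = 0.031) and had 0.12 at 1 h (adjusted p = 0.83). These counts rest on pairs of arrays. Without replicate 1 at 1 h the 1 h count of list members was 2, and without replicate 1 or replicate 2 at 3 h the 3 h count was 0 each time.

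Dehydrins stood highest at 1 h. LTI30 and COR47, both dehydrins that protect cells in cold and drought, were the 2 kept genes of the abscisic acid, drought and cold list, and both rose at 1 h. COR47 had 2137 and 1941 at 1 h, against 575 and 1183 at 0.25 h and 768 and 1298 at 0.5 h (log2 difference 1.16 ± 0.27, adjusted p = 0.039), and at 3 h 922 and 1042. LTI30 had 1414 and 1393 at 1 h, against 801 and 914 at 0.25 h and 738 and 989.5 at 0.5 h (0.71 ± 0.15, adjusted p = 0.028). COR47 lost its call under 11 of 20 alternatives. AT1G47400, chosen after its values were seen, had 62.3 and 45.6 at 1 h and 22.6 and 16.4 at 3 h, against 12.8 and 7.11 at 0.25 h and 8.64 and 10.5 at 0.5 h (log2 difference at 1 h 1.69 ± 0.15, adjusted p = 2.8e-04).

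Heat shock genes stood highest at 3 h. Of 14 kept genes of the heat shock and protein folding list, 9 rose at 3 h against 0.25 and 0.5 h (median 1.18). At 1 h 0 rose (median 0.033), and 0 rose over both times (median 0.53). Among all probe sets, 1.4% rose at 3 h, 1.34% at 1 h and 0.877% over both times. AT1G53540 had a signal of 132 and 170.4 at 3 h and 42.2 and 11.4 at 1 h, against 15.8 and 13.9 at 0.25 h and 32.5 and 10.9 at 0.5 h (log2 difference at 3 h 2.56 ± 0.59, adjusted p = 0.043). AT2G29500 had 175 and 230.0 at 3 h and 89.7 and 28.2 at 1 h, against 27.9 and 17.7 at 0.25 h and 47.6 and 30.96 at 0.5 h (2.41 ± 0.49, adjusted p = 0.027). AT5G51440 had 154 and 166 at 3 h and 47.03 and 41.1 at 1 h, against 69.4 and 44.6 at 0.25 h and 61.4 and 51.2 at 0.5 h (1.37 ± 0.20, adjusted p = 0.0054). In each gene both 3 h arrays lay above all others of these times. Fes1A, a partner of the chaperone HSP70, rose by 0.90 ± 0.16, adjusted p = 0.013, and AT5G48570, listed under the synonym ROF2, a peptidyl-prolyl isomerase, by 0.99 ± 0.19, adjusted p = 0.020.

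ATHSP22.0, a small heat shock protein, rose by 1.47 ± 0.33, adjusted p = 0.038, AT1G54050 by 2.17 ± 0.46, adjusted p = 0.031, AT1G52560 by 1.71 ± 0.30, adjusted p = 0.014 and AT5G37670 by 1.53 ± 0.37, adjusted p = 0.0492. Members whose differences did not pass included Hsp70-2 (0.16), AT3G09440 (0.29), Hop3 (0.45), BOB1 (-0.028) and AT2G20560 (-0.011), with adjusted p of 0.061 to 0.99. With either 3 h array left out, no member passed at 3 h. The count was 4 without replicate 2 at 0.25 h, 4 without replicate 2 at 0.5 h, 6 without replicate 1 at 0.25 h, 4 without the filter and 3 with the 25S rRNA covariate.

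**Figure D3:**
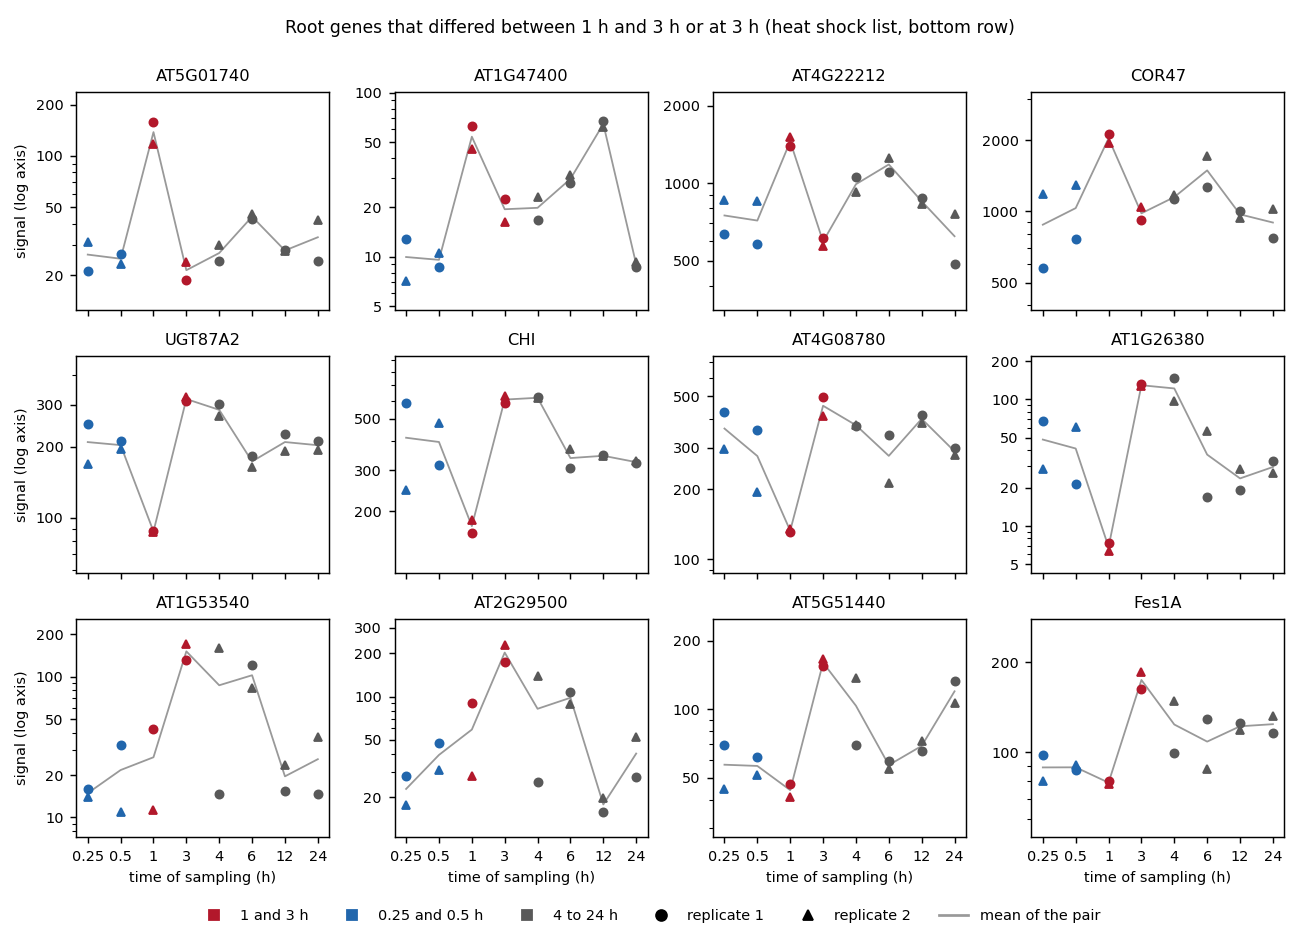
Signal (log axis) of 12 root genes by time of sampling (h), with a circle or triangle per array and a line through the mean of each pair. The top row peaks at 1 h among the 4 compared times (AT5G01740 at 158 and 118), the middle row is low at 1 h and high at 3 h (UGT87A2 at 312 and 323 at 3 h and 87.9 and 87.3 at 1 h), and the bottom row shows 4 heat shock list members with both 3 h arrays above the arrays of the other 3 compared times.

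The 3 h roots were then compared directly with the 1 h roots. Here 747 probe sets (5.6%) were higher and 580 (4.35%) lower at 3 h, 9.94% in all, with 191 rises and 113 falls of 2-fold or more. Of the 117 probe sets that rose over both late times, 43 (36.8%) also differed between 3 h and 1 h, 18 higher and 25 lower at 3 h. Of the 66 that fell, 15 (22.7%) did, 11 higher and 4 lower at 3 h. Of 21 hypoxia list members 1 differed, AT2G15880, which was higher at 3 h by 0.92 ± 0.26, adjusted p = 0.040, and the list median was 0.03. Negative differences in 10 members included that of AT3G10040 (-1.39 ± 0.52, adjusted p = 0.11), which did not pass.

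AT5G01740 was the largest fall, with 18.8 and 23.9 at 3 h, against 158 and 118 at 1 h (log2 difference -2.23 ± 0.23, adjusted p = 3.6e-04). At 0.25 and 0.5 h it had 21.3 to 31.5, so the 1 h arrays stood alone. The multicopper oxidase-like gene sks15 (SKU5 similar) had 40.3 and 47.2 at 3 h, against 168 and 196 at 1 h (-1.84 ± 0.53, adjusted p = 0.0472). AT4G22460 (-1.85 ± 0.41, adjusted p = 0.017) and AT4G11190 (-1.70 ± 0.33, adjusted p = 0.0094) were the other large falls, and both have no name here. AT4G22212, chosen after its values were seen, had 615 and 574 at 3 h, against 1399 and 1506 at 1 h (-1.27 ± 0.21, adjusted p = 0.0044). Of these, AT5G01740 kept its call under every alternative, while sks15 lost it under 10 of 20, AT4G22460 under 5 of 19, AT4G11190 under 3 of 20 and AT4G22212 under 1 of 20.

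The largest rises were AT3G29970, AT1G26380, AT2G30670 and AT3G28510. AT3G29970 had 618 and 566 at 3 h, against 57.6 and 20.01 at 1 h (log2 difference 3.74 ± 0.81, adjusted p = 0.014), but 37.7 and 78.4 at 0.25 h and 486 and 95.8 at 0.5 h, so the early arrays spanned a wide range. AT1G26380 had 131 and 127 at 3 h, against 7.35 and 6.35 at 1 h (3.05 ± 0.45, adjusted p = 0.0029), and 21.5 to 67.97 at 0.25 and 0.5 h. Its 1 h arrays were the lowest and its 3 h arrays the highest of the 8. AT3G28510 had 435 and 434 at 3 h, against 57.8 and 62.3 at 1 h (2.67 ± 0.53, adjusted p = 0.010), and AT2G30670 352 and 380.4 at 3 h, against 47.6 and 49.8 at 1 h (2.68 ± 0.70, adjusted p = 0.033). In both the 0.25 and 0.5 h arrays spanned the 3 h level, at 199 to 1019 and 117 to 581. AT1G26380 kept its call under every alternative. AT3G29970 lost it with replicate 2 at 1 h or either 3 h array left out, and AT2G30670 and AT3G28510 with any 1 of the 4 arrays of 1 and 3 h left out. AT2G30670 also lost it without the filter and with another prior, and the adjusted p of these 3 genes reached 0.15 over all alternatives.

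A chitinase, a glycosyltransferase, a defensin and several peroxidases were higher at 3 h than at 1 h, and these were chosen after their values were seen. CHI, annotated as a chitinase, had 586 and 625 at 3 h, against 161 and 183 at 1 h (log2 difference 1.76 ± 0.28, adjusted p = 0.0038), and 246 to 583 at 0.25 and 0.5 h. UGT87A2, a glycosyltransferase, had 312 and 323 at 3 h, against 87.9 and 87.3 at 1 h (1.75 ± 0.18, adjusted p = 3.6e-04), and 169.5 to 249 at 0.25 and 0.5 h. PDF2.1, a defensin, had 288 and 266 at 3 h, against 48.6 and 67.4 at 1 h (2.09 ± 0.22, adjusted p = 4.8e-04), and its early arrays, 44.99 to 84.9, lay with the 1 h pair. Of the 40 class III peroxidases, 9 were higher and 2 lower at 3 h (median -0.086), where 5.6% and 4.35% of all probe sets were. At 1 h, 4 of the 40 were lower than at 0.25 and 0.5 h, where 1.9% of all probe sets were. AT4G08780 had 498 and 412 at 3 h, against 130.4 and 135 at 1 h (1.70 ± 0.28, adjusted p = 0.0042), and Prx37 930.2 and 967 at 3 h, against 349 and 350.4 at 1 h (1.41 ± 0.22, adjusted p = 0.0037). AT4G26010, which went the other way, had 173 and 205 at 3 h, against 504 and 519 at 1 h (-1.39 ± 0.32, adjusted p = 0.018). With 1 array of 1 h or 3 h left out, 3 to 7 peroxidases passed, against 11 with all arrays.

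Heat shock list members also differed between the late times, with 7 of 14 higher at 3 h than at 1 h (median 0.99, all 14 positive). Among all probe sets, 5.6% were higher at 3 h than at 1 h. AT5G51440 (1.66 ± 0.23, adjusted p = 0.0019) and Fes1A (1.05 ± 0.18, adjusted p = 0.0058) had the smallest p among them. Leaving out an array of 1 h or 3 h left 4, 2, 2 and 1 calls for replicates 1 and 2 at 1 h and at 3 h. Clock list members passed for 3 of 7, all higher at 3 h: AT4G33980 (1.06 ± 0.20, adjusted p = 0.0076), AT4G16146 (0.63 ± 0.12, adjusted p = 0.0095) and GI (0.51 ± 0.12, adjusted p = 0.023).

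Between 0.5 h and 0.25 h, 0 probe sets passed in limma (0%), while 1355 (10.2%) had an unadjusted p under 0.05. A fit of only the 8 root arrays of 0.25 to 3 h called 10 and a fit of all 36 arrays called 4. Plastid transcripts nonetheless lay on 1 side, with 59 of 63 plastid genome probe sets lower at 0.5 h and a median log2 difference of -1.01, against 0.012 over all probe sets, and none of them passed. Their summed signal was 15737 and 12973 at 0.5 h, against 25508 and 26359.5 at 0.25 h. The 25S rRNA control moved the same way between these times, with 1533 and 1610.3 at 0.5 h, against 2549 and 2630.0 at 0.25 h. At 3 h the plastid sum was also low, at 16757 and 13195, while the 25S rRNA signal was 2413 and 2514. The part of the 25S rRNA control in the plastid values was not tested.

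The array controls were compared between the late and the early roots. The 25S rRNA signal was 2354 and 2311 at 1 h and 2413 and 2514 at 3 h, with the early arrays on either side (exact permutation p = 0.43, 2-sided). The exact permutation p was 0.17 for 5S rRNA, 0.34 for the 3′ to 5′ ratio of GAPDH and 0.11 for that of actin. With 4 against 4 arrays no p below 0.0286 is possible. Over the 8 arrays the 3′ to 5′ ratio was 0.99 to 1.12 for GAPDH but 11.9 to 15.3 for actin. A signal of 40 was reached by 52.1 to 53.6% of the probe sets. In a principal component analysis of the 8 arrays, the leading component (43.0% of the variance) set the 1 h arrays (23.8 and 24.6) against the 3 h arrays (-20.3 and -19.2), with the early arrays from -14.9 to 9.73 between them.

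The same times were compared in the shoots, to see whether the root changes were shared by the plant as a whole. In shoots 1877 probe sets (12.4%) rose and 1473 (9.76%) fell at 1 and 3 h, 22.2% of the 15091 kept over all 36 arrays, and 33.7% had an unadjusted p under 0.05. The change itself differed between roots and shoots for 1562 probe sets (10.4%), 801 (5.31%) more positive and 761 (5.04%) more negative in roots. A gene that is high in roots and under the filter in shoots has little measurable shoot change on this scale, and its difference then mostly restates the root change. The counts are therefore split by whether the shoot signal reached 40 on 2 or more of the 8 shoot arrays. Of the 117 probe sets that rose in roots, 71 reached it, and 37 of these differed from shoots, 31 of them further up in roots. The other 46 gave 27 calls that mostly restate the root change. In shoots 36 of the 117 rose as well and 13 fell. Of the 66 that fell in roots, 49 reached it, and 17 of these differed, 11 of them further down in roots, while 27 of the 66 fell in shoots as well and 2 rose. The median shoot change of the 117 was 0.10 and that of the 66 was -0.23, against 0.044 over all probe sets in shoots.

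**Figure D4:**
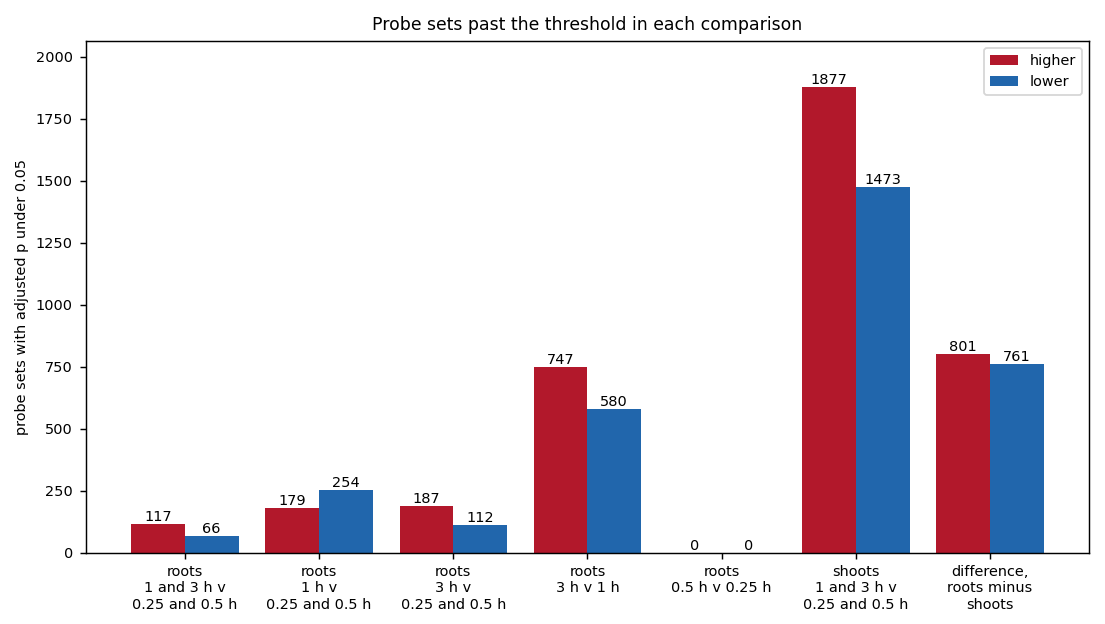
Number of probe sets with an adjusted p under 0.05 (limma) in each of the 7 comparisons, as bars from 0, red for higher and blue for lower. The late against early comparison called 117 and 66 in roots and 1877 and 1473 in shoots, 3 h against 1 h called 747 and 580 in roots, and 0.5 h against 0.25 h called 0.

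Of 21 hypoxia list members, 10 had shoot signals that reached the filter, and 8 of these had a more positive change in roots and 0 a more negative one. The other 11 were under the filter in shoots. Over all 21 the median difference was 1.61, against -0.062 over all probe sets, which for those 11 mostly restates the root values. In shoots 1 of the 21 rose and 5 fell (median -0.013), where 12.4% of all probe sets rose and 9.76% fell. Of the 12 that rose in roots, 5 reached the filter in shoots, and the change of 4 of these differed. AT1G33055 had 2.30 and 2.0 at 1 h and 11.3 and 17.6 at 3 h in shoots, against 70.1 and 61.6 at 0.25 h and 79.5 and 20.8 at 0.5 h, and the difference of the changes was 3.90 ± 0.47, adjusted p = 6.2e-06. CML38 differed by 3.22 ± 0.55, adjusted p = 4.1e-04, AT5G44730 by 1.40 ± 0.34, adjusted p = 0.0085 and AT1G74940 by 1.21 ± 0.25, adjusted p = 0.0024. The shoot signals of AT3G10040 were 8.28 to 15.6, and those of AT5G66985 0.407 to 1.12, all below the filter of 40, so a change of these genes in shoots could hardly be measured. PDC2 was the member of the 5 that did not differ past the threshold. It had 121 and 62.1 at 1 h and 160.4 and 229 at 3 h in shoots, against 23.1 and 40.4 at 0.25 h and 77.2 and 29.4 at 0.5 h, a rise of 1.52 ± 0.27, adjusted p = 2.2e-04, and its changes in roots and shoots differed by 0.16 ± 0.38 (adjusted p = 0.84). Over all 21 members, 17 passed in the difference, against 10.4% of all probe sets. The count was 12 to 18 over all alternatives, lowest without a pseudocount.

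**Figure D5:**
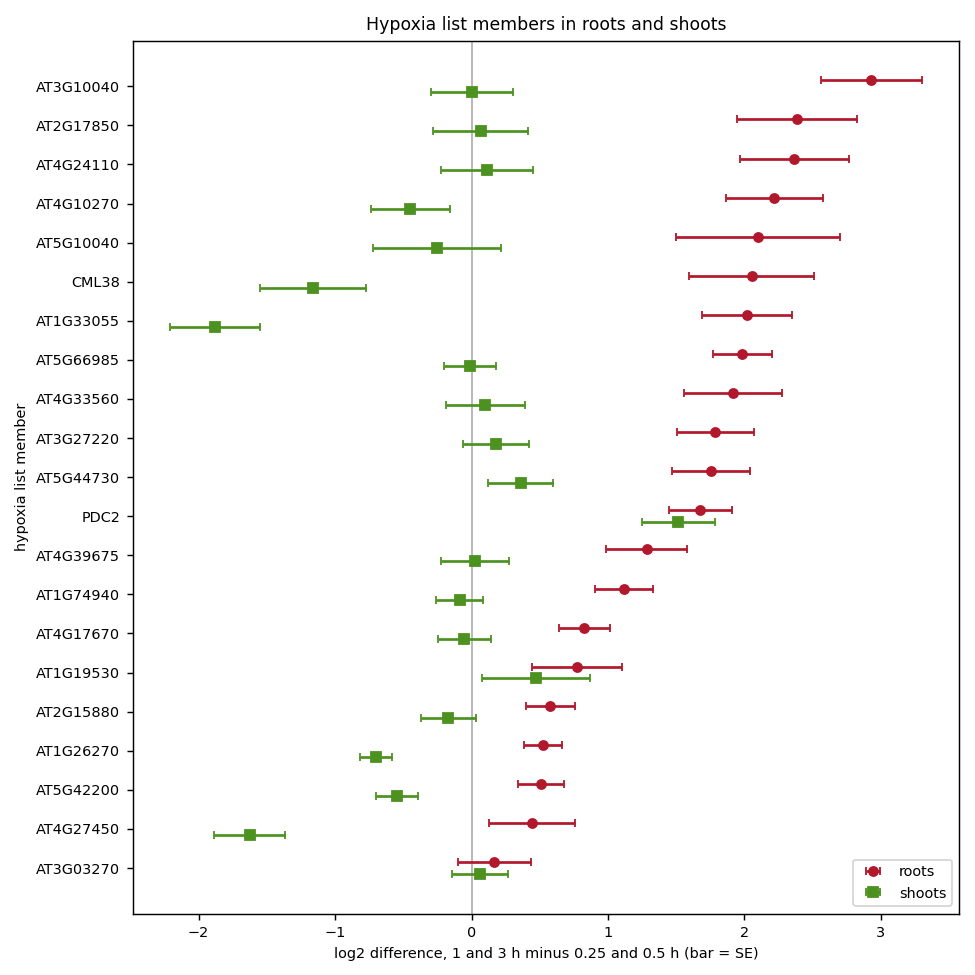
Log2 difference of 1 and 3 h minus 0.25 and 0.5 h (bars show the SE) for the 21 hypoxia list members, with roots as circles above shoots as squares. All 21 root values lie to the right of 0, from 0.17 to 2.93, while shoot values run from -1.88 to 1.52 and only PDC2 has a shoot value above 1; shoot signals of 11 members were under the filter, where a change is hard to measure.

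Other root falls and rises were also set against the shoots. AT5G26200 rose in roots and fell in shoots (-0.81 ± 0.19, adjusted p = 0.0036), a difference of 2.46 ± 0.27, adjusted p = 2.7e-06. AT4G28310 fell in roots and rose in shoots (0.70 ± 0.11, adjusted p = 8.7e-05), a difference of -1.17 ± 0.16, adjusted p = 3.4e-05. OCT1 had shoot signals of at most 0.875, so its shoot change could hardly be measured. The same held for AT1G14480, at most 25.1, and for AT3G23170, at most 41.98 and over 40 on 1 array. AT1G04000 differed by -0.44 ± 0.13, adjusted p = 0.036. For GTR1 both organs fell, by 0.61 in roots and 0.48 in shoots on the log2 scale, and the difference of -0.13 ± 0.17 did not pass (adjusted p = 0.70).

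The clock gene GI rose in both organs, and less in roots. Its shoot signals were 82.4 and 85.5 at 1 h and 154 and 203 at 3 h, against 64.2 and 58.3 at 0.25 h and 52.5 and 50.9 at 0.5 h (log2 difference 1.0 ± 0.09, adjusted p = 2.4e-08), and the roots minus shoots difference was -0.55 ± 0.13, adjusted p = 0.0062. AT4G16146 likewise differed by -0.51 ± 0.13, adjusted p = 0.015, with a shoot rise of 0.81 ± 0.093. For AT4G33980 the difference of 0.65 ± 0.22 did not pass (adjusted p = 0.064). Touch and sugar starvation genes fell in shoots. Of 10 touch genes tested over all 36 arrays 8 fell in shoots (median -1.34) and 4 differed from roots, such as WRKY22 (2.05 ± 0.22, adjusted p = 1.5e-06). Of 7 sugar starvation genes 5 fell in shoots (median -1.29) and 5 differed. Among all probe sets, 9.76% fell in shoots and 10.4% differed between the organs. AT3G15450 had 158 and 288 at 1 h and 1457 and 2548 at 3 h in shoots, against 3399 and 3536 at 0.25 h and 2914 and 2478 at 0.5 h, and its difference was 2.55 ± 0.29, adjusted p = 3.6e-06. Of 14 heat shock genes 0 passed in shoots and 2 in the difference, where 22.2% and 10.4% of all probe sets passed.

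The genes with the smallest p for the difference between the organs all changed in shoots. AT2G44500 had 212 to 249 at 1 and 3 h and 264 to 301 at 0.25 and 0.5 h in roots, and in shoots 40.9 and 34.7 at 1 h and 51.7 and 60.9 at 3 h, against 172 and 189 at 0.25 h and 268 and 261 at 0.5 h (difference 1.76 ± 0.10, adjusted p = 1.7e-10). AT1G25550 (2.50 ± 0.16, adjusted p = 9.8e-10) and AT3G46600 (1.85 ± 0.13, adjusted p = 5.1e-09) showed the same form, with root changes of 0.10 and -0.058 that did not pass. AT4G37240 rose in roots (1.0 ± 0.16, adjusted p = 0.0078) and fell in shoots (-1.53 ± 0.15, adjusted p = 5.8e-08), a difference of 2.53 ± 0.21, adjusted p = 4.4e-08. Its root signals were 432 and 275 at 1 h and 152 and 171 at 3 h, against 103 and 118 at 0.25 h and 109.6 and 123 at 0.5 h, highest at 1 h. In the other direction, DPE1, the plastid enzyme that processes maltotriose in starch breakdown, had 65.8 to 70.5 at 1 and 3 h and 48.5 to 64.97 at 0.25 and 0.5 h in roots and 63.6 and 71.8 at 1 h and 269 and 248 at 3 h, against 49.6 and 42.4 at 0.25 h and 40.4 and 57.8 at 0.5 h, in shoots (difference -1.18 ± 0.13, adjusted p = 3.0e-06). AT1G78170 (-1.74 ± 0.14, adjusted p = 4.0e-08), AT2G15020 (-1.63 ± 0.17, adjusted p = 8.2e-07) and AT1G70820 (-0.88 ± 0.10, adjusted p = 3.0e-06) rose in shoots, and their root signals of at most 19.5 lay below the filter. AT2G15020 lost its call without the pseudocount (adjusted p = 0.37).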

How the data were processed

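Transcript levels were measured on Affymetrix ATH1 arrays in roots and shoots of 36 samples (9 times, 2 tissues, 2 arrays each). The deposited values are linear intensities for 22810 probe sets, made by the authors with MAS5 (release not given in the sources used here), per the submitters' processing notes. Trimmed of 2% of probe sets at each end, the mean was 100.007 to 100.01 on every array, so no further scaling was applied, and 10 (10% of that mean) was added before log2. The array's 64 control probe sets were left out. Kept probe sets reached a signal of 40 on 2 or more of the 18 root arrays (13346, of which 7122 with 1 gene) or of all 36 arrays (15091).

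The probe table gave 1 gene for 13513 probe sets, several for 503 and none for 8794, and 13436 were matched through Entrez numbers to the TAIR10.1 reference gene table, used for names only. Group means (9 in roots, 18 over both tissues) were estimated in limma 3.58.1 (R 4.3.3), with 9 and 18 residual and 3.95 and 4.06 prior degrees of freedom. Tests were 2-sided with Benjamini-Hochberg adjustment over all kept probe sets and a threshold of 0.05. Single array control values were compared with exact permutation tests. The procedure was tested on simulated data.

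Genes named are probe sets with 1 gene: the 12 largest called changes each way without overlap of the 4 and 4 arrays, the 4 largest each way at 3 h against 1 h, the 4 with the smallest p each way in the roots minus shoots difference, and up to 4 members of each list with the smallest p. Others named are further members of a list or, where said, chosen after their values were seen. The comparison, the 38 lists (748 loci, 150 of them matched to a probe set with 1 gene) and the tests were chosen with earlier results of these data known, and 2 lists, class III peroxidases and the plastid genome, were added after the data were seen. Loci without such a probe set were not examined. Some of them may be on the array, since 8794 probe sets had no gene in the probe table. Some lists share members. Alternatives were other pseudocounts (0 and 50), filters (none, and a signal of 100), scalings and priors, a fixed or a random replicate block, a 25S rRNA covariate, and each array left out in turn. Further fits used all 36 arrays, or only the 8 root arrays of 0.25 to 3 h, to which the 8 shoot arrays of these times were added where shoots entered. Promoter sequences were not analysed here.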

Additional observations from a re-analysis of the deposited data

Results flagged for a closer look

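The late and the early root arrays of the 12 largest rises, the 12 largest falls and the array controls were examined for outlying arrays. In 58 groups of 4 arrays, 5 held an array far from the other 3, with a gap over the whole range past Dixon's critical value. The test was made on the log2 scale for genes. Chance gives about 1 in 20 such groups of like arrays. Each group here mixed sampling times, so this rate need not apply. AT1G33055 had a gap of 0.840 of its range among the 1 and 3 h arrays, where replicate 1 at 1 h was high. Among the 0.25 and 0.5 h arrays, AT5G66985 (0.859) had a low replicate 1 at 0.5 h, and OCT1 (0.876) and AT5G12340 (0.833) had a high replicate 1 at 0.25 h. The 3′ to 5′ ratio of GAPDH (0.832) was high in replicate 1 at 3 h.

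The change from the early to the late times differed between roots and shoots for 1562 probe sets by the limma test of the difference itself. Where the shoot signal did not reach 40 on 2 of the 8 shoot arrays, the value mostly restates the root change. This holds for AT3G10040, AT4G24110, AT4G10270, AT5G66985, AT3G23170, AT4G33560, AT3G27220, OCT1 and AT1G14480. Likewise the root signals of AT1G78170, AT2G15020 and AT1G70820 were below the filter. Among the genes that rose in roots, the change in roots minus that in shoots was 2.93 for AT3G10040, 2.25 for AT4G24110, 2.67 for AT4G10270, 3.22 for CML38, 3.90 for AT1G33055 and 2.0 for AT5G66985. It was 2.04 for AT3G23170, 1.81 for AT4G33560, 1.61 for AT3G27220, 1.40 for AT5G44730 and 2.46 for AT5G26200. Among the genes that fell in roots it was -1.22 for OCT1, -0.79 for AT1G14480, -1.17 for AT4G28310 and -0.44 for AT1G04000. The genes with the smallest p of this difference had 1.76 (AT2G44500), 2.50 (AT1G25550), 1.85 (AT3G46600) and 2.53 (AT4G37240) on the positive side. On the negative side they had -1.74 (AT1G78170), -1.63 (AT2G15020), -0.88 (AT1G70820) and -1.18 (DPE1).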

How the results depend on the processing

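The main count of 183 became 118 without the filter, 84 with the 8 arrays alone and 66 with the 25S rRNA covariate, and ran from 47 (without replicate 2 at 3 h) to 203 (without replicate 2 at 0.25 h) with 1 array left out. It was 78 without replicate 1 at 3 h, 103 without replicate 1 at 0.25 h, 105 without replicate 2 at 0.5 h and 113 without replicate 1 at 1 h. The 1 h count of 433 became 272, 210 and 262 under the first 3 settings and 76 to 702 with 1 array left out, lowest without replicate 1 at 1 h. The 3 h count of 299 became 150 without the filter and 119 with the 8 arrays alone, and 19 to 349 with 1 array left out, lowest without replicate 2 at 3 h. The count for 3 h against 1 h (1327) became 860 with the 8 arrays alone and 148 to 1495 with 1 array left out, lowest without replicate 2 at 3 h. For 0.5 h against 0.25 h, 10 and 4 passed with the 8 arrays alone and with all 36. The shoot count stayed at 2453 to 3347 and that of the difference at 1068 to 1563 with 1 array left out. Fewer arrays or more probe sets enter some of these fits, and the cause of the other moves was not tested. At 1 h the split of 179 higher and 254 lower became 164 and 150 with quantile normalization and 221 and 169 with arrays centred on their median, and at 3 h against 1 h 747 and 580 became 589 and 795 with centring. With the 25S rRNA covariate 187 and 112 at 3 h became 114 and 140.

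The main fit did not treat replicate numbers as pairs. Differences between replicates correlated at 0.306 between 0.25 and 0.5 h and at -0.111 to 0.093 between the other times. On the leading principal component the early replicate 1 arrays lay at -14.9 and -9.71 and the early replicate 2 arrays at 5.94 and 9.73. Some pairing of the early arrays by replicate number can therefore not be set aside. The replicate block moved the 1 h count to 667 and moved no other count by over 1.5 times. Changes of sign in the 1 and 3 h against 0.25 and 0.5 h comparison of roots concerned 22 genes, none of which passed the test there, and the cause was not tested. With arrays centred on their median the values were AT1G12010 0.0084, EXPA7 0.018. With the 25S rRNA covariate the values were AT2G31790 0.052, AT1G26380 0.28, 3xHMG-box1 0.14, LHCB4.1 0.014, AT1G77750 -0.0031, WRKY20 0.11. Without a pseudocount the values were AT1G26420 -0.039, EXPA7 0.0028. With a pseudocount of 50 the values were AT1G26380 0.13. With quantile normalization the values were AT1G26380 0.033, EXPA7 0.034, Prx37 -0.0035, WRKY20 0.00091. With 1 array left out the values ran over these ranges, from the lowest to the highest: AKINBETA1 -0.025 to 0.27, AT1G25550 -0.060 to 0.25, AT3G12900 -0.85 to 0.064, BGLU42 -0.19 to 0.047, AT1G12010 -0.24 to 0.22, DFR -0.27 to 0.00067, BCAT4 -0.23 to 0.070, AT2G31790 -0.18 to 0.067, AT1G26420 -0.12 to 0.23, AT1G26380 -0.36 to 0.22, 3xHMG-box1 -0.15 to 0.023, PWD -0.055 to 0.19, SWEET2 -0.045 to 0.38, LHCB4.1 -0.25 to 0.0044, PSAN -0.27 to 0.022, EXPA18 -0.16 to 0.26, EXPA7 -0.17 to 0.16, Prx37 -0.19 to 0.23, CYP71B23 -0.36 to 0.021, GSTU28 -0.046 to 0.64, WRKY20 -0.11 to 0.069.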

Other observations

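Plastid transcripts in roots, which no comparison of late against early times called (0 of 63, median -0.10), differed between the late times for some members. At 3 h against 1 h, 1 of the 63 probe sets was higher and 6 lower. Over all probe sets 5.6% were higher and 4.35% lower in this comparison, 9.94% in all, so the number of plastid calls lay near the general share. Their summed signal was 16757 and 13195 at 3 h, against 20776 and 22894 at 1 h. psaA, a core protein of photosystem I, had 149 and 112 at 3 h, against 329 and 369.8 at 1 h (log2 difference -1.37 ± 0.39, adjusted p = 0.044). RCA, the nuclear gene of Rubisco activase, had 68.3 and 71.4 at 3 h, against 125 and 128 at 1 h (-0.77 ± 0.15, adjusted p = 0.010). The sugar transporter gene SWEET16 was lower at 3 h than at 1 h by 0.93 ± 0.19, adjusted p = 0.012, and SWEET17 by 0.67 ± 0.17, adjusted p = 0.030. The auxin-conjugating enzyme gene WES1 had 356 and 357 at 3 h, against 159.7 and 153 at 1 h (1.14 ± 0.29, adjusted p = 0.026), and EXLB1, an expansin-like gene, 149.8 and 142 at 3 h, against 63.4 and 81.1 at 1 h (0.93 ± 0.20, adjusted p = 0.014).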
